A study of Mus musculus with 5 samples.

Results

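Aard, Clu, Cldn11, Defb19, Defb45, Mmd2 and Sox9 are 7 genes used as markers of Sertoli cells, the supporting cells inside the seminiferous tubules of the testis. They were followed across 5 single-colour mouse microarrays. Values of single arrays are given for MEF, then for replicates 1 and 2 of the iLC pair, then for replicates 1 and 2 of the Leydig pair. Each was found by its symbol in the platform annotation, and each had 1 probe, so the set is 7 of 19084 genes and 7 of 26423 probes. The genes were chosen by their intensities on these same arrays. Their levels and differences below are therefore a description, and no test of them is offered.

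The study set fibroblasts carrying gonadal transcription factors beside the cell type they were meant to resemble. The MEF group was 1 array of fibroblasts from mouse embryos at 13.5 days post coitus that received a mock vector. The iLC group was 2 arrays of fibroblasts from embryos of the same age, given lentivirus for Dmrt1, Gata4 and Nr5a1. The virus was left on for 12 h, and the cells then grew in a reprogramming medium whose added factors were IGF, at 50 ng/ml, and PDGFAA, dosed at 10 ng/ml. The Leydig group was 2 arrays of cells labelled as Leydig cells, the testosterone-producing cells between the tubules, from the testes of 56-day-old mice. Strain, sex of the embryos, time in the reprogramming medium and the way the Leydig cells were isolated are not stated in the labels. Nothing says whether the arrays of a pair came from separate animals or cultures, so every error measures the spread between those arrays, which may be technical. Leydig replicate 2 stood apart in its germ cell transcripts, whose summed intensity was 17.9 times that of Leydig replicate 1, and differences without it are given below. On arrays of bulk RNA, fewer cells of a type and less RNA per cell cannot be told apart.

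Sertoli cells nurse the developing germ cells and decide the male course of the gonad. SOX9 is the transcription factor that sets their fate in the embryo, and claudin-11 builds the tight junctions between them that form the blood-testis barrier. They release large amounts of fluid and protein into the tubule, clusterin among it. Several beta-defensins, small secreted peptides of the innate defence, are made along the male tract, and Defb19 is known from the Sertoli cells of the fetal testis. Leydig cells lie outside the tubules, but both cell types arise in the gonadal ridge and use NR5A1 and GATA4.

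The 7 genes did not behave as 1 group. Mmd2, Defb19, Aard, Clu and Cldn11 read above the other 3 arrays on both Leydig arrays. Defb45 read high on the iLC arrays instead, and Sox9 read lower on both Leydig arrays than on the other 3. Other Sertoli genes, given further on, were mixed. Of 63 measured, 7 were called higher on the Leydig arrays than on the MEF array, 5 lower and 51 neither. Over all genes 3.34% were called higher and 3.97% lower. Both Leydig arrays read above the other 3 arrays for 18 of the 63, beside 19.0% of all genes. Serpina5, Tcf21 and Nell2 were among the 7 called higher, and Fshr, Amh, Sox8, Rhox5, Dmrt1 and Shbg among the 51 that did not pass. Sox8 and Dmrt1 still read above the other 3 arrays on both Leydig arrays. Because 2 of the 7 genes, Defb45 and Sox9, were not highest on the Leydig arrays, the genes are called by their names here.

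**Figure D1:**
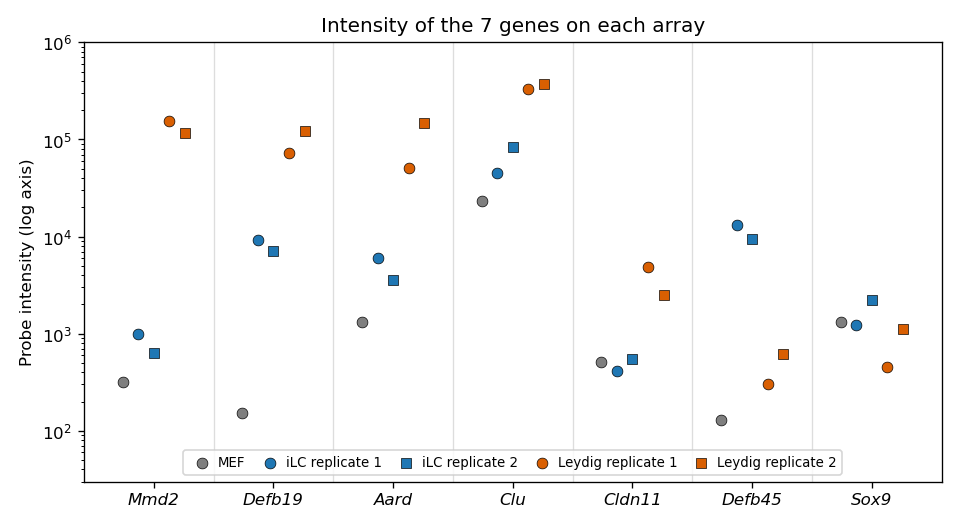
Probe intensity on a log axis for each of the 7 genes, with 1 point for each of the 5 arrays. Mmd2, Defb19, Aard, Clu and Cldn11 are highest on the Leydig arrays, Defb45 is highest on the iLC arrays at 9348 and 13316, and the Sox9 readings stay between 450 and 2222.

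The upstream sequence was in the RefSeq promoter table for 3 of the 7 genes, Defb45, Cldn11 and Mmd2. These 3 differ in pattern, since Defb45 was high on the iLC arrays and the other 2 on the Leydig arrays, so their 250 bases before the annotated start are shown together. Each is written 5′ to 3′ along the gene's own strand, from build GRCm38.p6. Capitals mark a CCAAT box (CCAAT, which reads ATTGG on the opposite strand) or a GC box (GGGCGG, which reads CCGCCC).
Defb45: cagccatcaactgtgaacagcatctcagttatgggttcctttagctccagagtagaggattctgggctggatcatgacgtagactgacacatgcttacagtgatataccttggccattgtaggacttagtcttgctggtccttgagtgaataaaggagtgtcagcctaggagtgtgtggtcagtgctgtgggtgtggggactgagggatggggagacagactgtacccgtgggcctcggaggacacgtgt
Cldn11: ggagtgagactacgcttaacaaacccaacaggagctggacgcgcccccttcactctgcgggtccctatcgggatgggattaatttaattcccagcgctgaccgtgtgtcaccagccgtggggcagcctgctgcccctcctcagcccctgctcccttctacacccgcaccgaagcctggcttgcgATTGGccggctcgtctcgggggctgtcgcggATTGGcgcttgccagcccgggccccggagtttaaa
Mmd2: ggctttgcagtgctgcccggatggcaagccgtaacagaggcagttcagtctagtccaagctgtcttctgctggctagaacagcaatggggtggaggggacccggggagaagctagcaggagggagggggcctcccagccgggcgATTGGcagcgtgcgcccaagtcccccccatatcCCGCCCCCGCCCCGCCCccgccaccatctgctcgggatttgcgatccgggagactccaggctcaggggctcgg
The Defb45 stretch is chr2:152596486-152596735 on the minus strand, the Cldn11 stretch chr3:31149670-31149919 on the plus strand and the Mmd2 stretch chr5:142608753-142609002 on the minus strand. Both strands were searched for these 2 boxes and for 4 other short motifs. AAGGTC is the core of the half-site that NR5A1 binds. GATAA is the core that the GATA factors bind. AACAAT is the core of sites for SOX factors. The last motif was TATAA, the core of the TATA box. None of these 6 motifs was found in the Defb45 stretch. Cldn11 held 2 CCAAT boxes, both on the opposite strand, at 66 to 62 and 35 to 31 bases before the start. Mmd2 held 1 CCAAT box on the opposite strand at 106 to 102 bases before the start. It also held 3 GC boxes on that strand between 73 and 57 bases before the start, 2 of which share a base. Of 32851 stretches of the same length in the table, 33.8% held CCAAT and 32.7% held GGGCGG. The share was 10.6% for AAGGTC, 22.6% for GATAA, 9.42% for AACAAT and 22.8% for TATAA. Cldn11 and Mmd2 were rich in G and C, at 63.6% and 67.2%, with 19 and 15 CpG pairs. Defb45 had 52.0% and 4 CpG pairs, and all the stretches in the table had medians of 52.4% and 6. A match is a run of letters and not a measured binding site.

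Sox9, the regulator of the set, read 1306 in MEF, 1216 and 2222 in the iLC pair, and 450 and 1120 in the Leydig pair. Both Leydig readings lay below the other 3, but Leydig replicate 2 came close to the lower iLC reading. The log2 difference was -0.86 ± 0.65 (SE) for Leydig against MEF (n = 2 and 1), -1.19 ± 0.53 for Leydig against iLC (n = 2 and 2) and 0.33 ± 0.65 for iLC against MEF. All differences here are on the scale log2(intensity + 16), and the SE comes from a limma fit over all 5 arrays that lends the MEF array the spread of both pairs. The Leydig against MEF value was -1.50 without Leydig replicate 2 and -0.22 without Leydig replicate 1. The iLC against MEF value turned to -0.10 without iLC replicate 2. SOX9 also drives cartilage collagen genes, so a list of 19 cartilage genes was read beside it. In limma's fit, with p-values adjusted by Benjamini-Hochberg over all genes, Acan, the core protein of aggrecan, was higher in Leydig cells than in MEF (log2 difference 1.92 ± 0.39, adjusted p = 0.0362). Col2a1, the main cartilage collagen, was lower (-1.93 ± 0.42, adjusted p = 0.0482). The other 17 cartilage genes, Col9a1, Col11a1, Chad and Sox5 among them, did not pass the test, and both calls were lost when any 1 of the 4 paired arrays was left out. The list's median was -0.47, against -0.10 over all genes.

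Clu encodes clusterin, an abundant secreted chaperone. Its probe read 23087 in MEF, 45638 and 82916 in the iLC pair, and 332720 and 369002 in the Leydig pair. The 3 groups did not overlap, and the readings stepped up from MEF through iLC to Leydig. The Leydig level lay 15.2-fold above MEF (log2 3.92 ± 0.47) and 5.69-fold above iLC (2.51 ± 0.39). The iLC arrays lay 1.41 ± 0.47 above MEF, which is 36.0% of the log2 distance from MEF to Leydig. Clu was also the member whose Leydig arrays were closest to each other, differing by 0.15 on the log2 scale.

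Defb19, a secreted beta-defensin, read 152 in MEF, 9137 and 7189 in the iLC pair, and 72091 and 122066 in the Leydig pair. The groups stepped up without overlap. The difference between Leydig and MEF was 558-fold (log2 9.12 ± 0.47), the largest increase among the 19084 genes with the settings used here. Leydig exceeded iLC 11.6-fold (3.53 ± 0.38), and iLC exceeded MEF 48.3-fold (5.59 ± 0.47). On the log2 scale the iLC arrays stood 61.3% of the way from MEF to Leydig. The MEF reading lay below that array's 20th percentile of 263, so its size rests on a dim spot. With values floored at each array's 20th percentile the Leydig against MEF difference was 8.40, below the 8.67 of Mmd2, so that the first rank was lost. It was lost too without Leydig replicate 2, at 8.74 beside 8.88 for Mmd2. With the 1st percentile of each array subtracted the difference was 10.12.

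Defb45, the neighbouring beta-defensin, showed another order. It read 128 in MEF, 13316 and 9348 in the iLC pair, and 307 and 615 in the Leydig pair. Both iLC readings stood far above the other 3. The iLC level was 77.7-fold above MEF (log2 6.28 ± 0.53), the 8th largest increase of all genes in that comparison. Leydig cells lay 24.8-fold below iLC (-4.63 ± 0.43). Between Leydig and MEF the difference was 1.65 ± 0.53. The MEF reading was again below that array's 20th percentile, and with the floor this last difference shrank to 0.69. It grew to 2.40 after quantile normalization and to 2.80 with the 1st percentile subtracted. Defb19 and Defb45 were thus both high on the iLC arrays, while Defb19 alone of this pair was high on the Leydig arrays.

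Cldn11, the tight junction claudin, read 513 in MEF, 413 and 552 in the iLC pair, and 4818 and 2505 in the Leydig pair. The MEF reading fell between the iLC readings, and both Leydig readings were above all 3. Leydig exceeded MEF 6.60-fold (log2 2.72 ± 0.51) and iLC 7.07-fold (2.82 ± 0.42). For iLC against MEF the value was -0.10 ± 0.51. Its sign turned without iLC replicate 1, to 0.10, and with the 1st percentile subtracted, to 0.14.

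Mmd2 encodes a membrane protein of the progestin and adipoQ receptor family. It read 316 in MEF, 988 and 635 in the iLC pair, and 156715 and 116950 in the Leydig pair. The Leydig readings were in a range of their own: 408-fold above MEF (log2 8.67 ± 0.45) and 167-fold above iLC (7.39 ± 0.37). These were the 3rd and the 6th largest increases of all genes. The iLC arrays lay 1.28 ± 0.45 above MEF, 14.8% of the log2 distance to Leydig.

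Aard, a gene named for the alanine and arginine rich domain of its protein, read 1314 in MEF, 6029 and 3587 in the iLC pair, and 50609 and 147767 in the Leydig pair. The groups did not overlap and stepped up in the same order as for Clu, Defb19 and Mmd2. Leydig exceeded MEF 65.0-fold (log2 6.02 ± 0.70) and iLC 18.5-fold (4.21 ± 0.57). The iLC arrays lay 1.81 ± 0.70 above MEF, 30.1% of the log2 distance. The Leydig arrays differed by 1.55 in log2, the widest gap within that pair among the 7 genes. Leydig against MEF was 5.25 without Leydig replicate 2 and 6.80 without Leydig replicate 1.

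**Figure D2:**
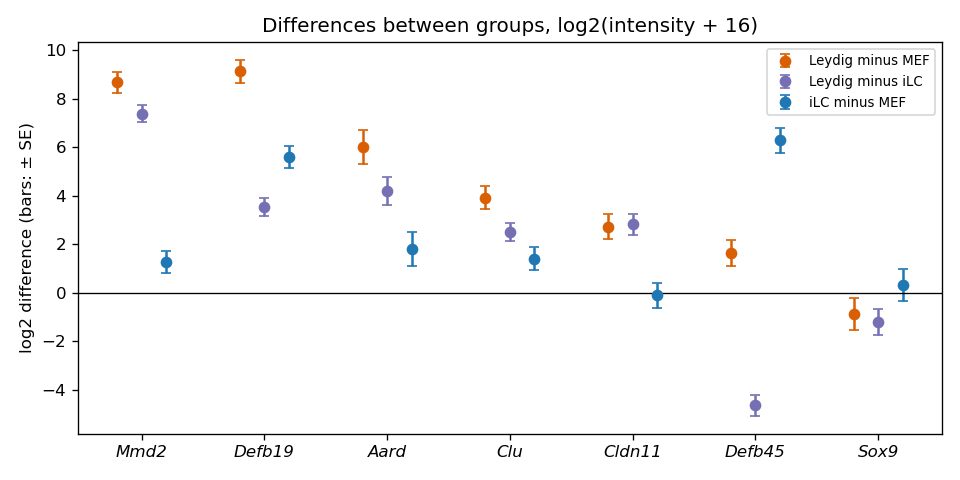
Log2 differences of the 7 genes between groups, with bars of ± SE from the limma fit over 5 arrays and a line at 0. Defb45 is 6.28 higher in iLC than in MEF and has -4.63 for Leydig against iLC; Sox9 is below 0 in both Leydig comparisons.

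The counts over the set follow from how it was chosen and are given as a description. A gene is called when its limma adjusted p, over all genes, is under 0.05. Between Leydig and MEF 5 of the 7 were called higher (Aard, Clu, Cldn11, Defb19 and Mmd2), and 3.34% of all genes were; none was called lower, as 3.97% of all genes were. Between Leydig and iLC the same 5 were called higher (5.65% of all genes) and Defb45 lower (5.72%). Between iLC and MEF the called genes were Defb19 and Defb45, both higher (0.278%), with none lower (0.283%). Both Leydig arrays were above the other 3 arrays for 5 members (19.0% of all genes) and below them for Sox9 (19.8%). The stepwise order MEF, iLC, Leydig without overlap was seen in Aard, Clu, Defb19 and Mmd2 (5.98%). Both iLC arrays were above MEF for 5 members (34.0%), and above the other 3 arrays for Defb45 (17.6%). The medians over the 7 genes were 3.92, 2.82 and 1.41 for Leydig against MEF, Leydig against iLC and iLC against MEF, beside -0.10, 0.03 and -0.11 over all genes. Of the 5 calls against MEF, 2 were left without Leydig replicate 2, 3 without Leydig replicate 1 and 4 without either iLC array. Which calls were lost or kept here describes the fit, and is no test of genes chosen by these same readings. Of the 6 calls against iLC, 4 were left without iLC replicate 1 or Leydig replicate 1 and 5 without Leydig replicate 2. Neither defensin call between iLC and MEF held when any 1 of the 4 paired arrays was left out, nor with 4 added in place of 16 or with the 1st percentile subtracted.

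Defb19 and Defb45 are neighbours in the RefSeq gene order of mouse chromosome 2, in a run of 11 protein-coding beta-defensin genes that all had a probe. The order is Defb23, Defb20, Defb22, Defb26, Defb28, Defb29, Defb21, Defb19, Defb45, Defb36 and Defb25. Defb36, on the other side of Defb45, read 277 in MEF, 988 and 1203 in the iLC pair, and 1778 and 1916 in the Leydig pair. It stepped up like Defb19, over a far smaller span. Its difference was 2.67 ± 0.38 for Leydig against MEF (limma adjusted p = 0.0131), 0.75 ± 0.31 for Leydig against iLC (adjusted p = 0.186) and 1.92 ± 0.38 for iLC against MEF (adjusted p = 0.0916). The Leydig against MEF call was lost without either Leydig array, at 2.61 and 2.72. None of the other 8 genes of the run passed the test in any comparison, and their differences between Leydig and MEF spanned -0.90 to 0.61.

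**Figure D3:**
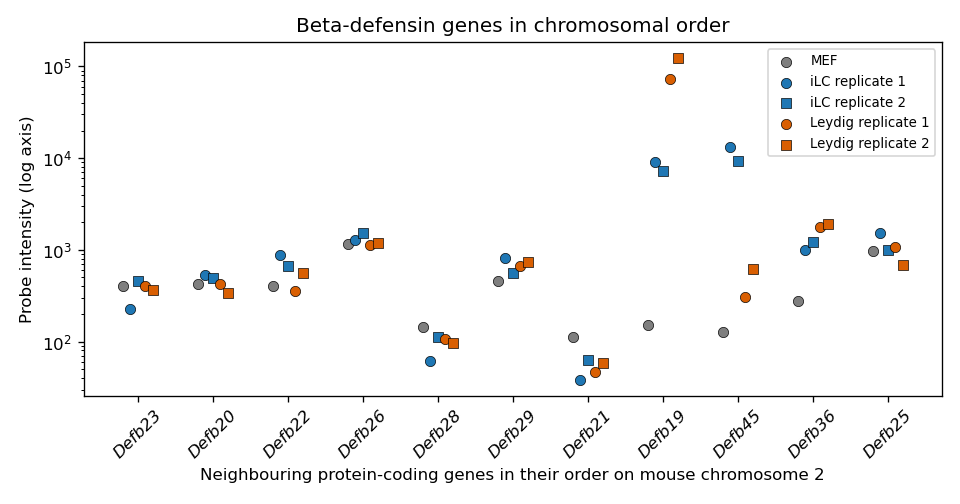
Probe intensity on a log axis for the 11 neighbouring beta-defensin genes in their order on mouse chromosome 2, with 1 point for each of the 5 arrays; spacing on the horizontal axis is not to distance. Defb19 and Defb45 stand apart on the iLC arrays, Defb19 reaches 72091 and 122066 on the Leydig arrays, and Defb36 beside them steps from 277 to 1916.

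Across the whole family 35 other beta-defensins had a probe. In limma's fit 1 of them, Defb36, was higher in Leydig cells than in MEF, and none was called lower there or called in either other comparison. Without Defb36 the other 34 reached at most 0.93 for Leydig against MEF, with a median of -0.41. Defb50, which had the highest mean of the 35 on the Leydig arrays, read 5036 in MEF, 2575 and 6951 in the iLC pair, and 4967 and 5062 in the Leydig pair. Defb11 read between 1212 and 1527 on all arrays.

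A wider set of 63 measured Sertoli genes, with the 7 left out, was read for comparison. In limma's fit 7 were higher in Leydig cells than in MEF, 5 were lower and 51 did not pass, with a median of 0.08 beside -0.10 over all genes. That is 12 of 63 where 7.30% of all genes were called. Without Leydig replicate 2 there were 3 calls, Nr5a1, Nell2 and Emx2. Between Leydig and iLC 9 were higher and 8 lower, with a median of -0.16, where 11.4% of all genes were called. Without Leydig replicate 2 there were 9 calls, and without Leydig replicate 1 there were 11. Between iLC and MEF limma called 0 of the 63, where 0.561% of all genes were called. At an unadjusted limma p under 0.05 there were 11 of the 63, beside 3005 of all 19084 genes. Up to 2 of the 63, Inha and Jam2, passed under other settings.

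Of 13 transcription regulators, 3 were higher and 1 was lower in Leydig cells against both MEF and iLC. Tcf21, a helix-loop-helix factor of the gonadal mesenchyme, read 506 in MEF, 61.9 and 168 in the iLC pair, and 49873 and 35286 in the Leydig pair (Leydig against MEF 6.33 ± 0.59, limma adjusted p = 0.00435). Nr5a1, shared by Sertoli and Leydig cells, read 1265 in MEF, 1509 and 1158 in the iLC pair, and 68030 and 44721 in the Leydig pair (5.43 ± 0.44, limma adjusted p = 0.00338). Gata4, likewise shared, read 6773 in MEF, 4127 and 3150 in the iLC pair, and 71888 and 50891 in the Leydig pair. Its difference was 3.16 ± 0.43 (limma adjusted p = 0.0111). Emx2, a homeobox factor of the early gonad, was lower, by -4.64 ± 0.44 (limma adjusted p = 0.00435). These called regulators are not peculiar to Sertoli cells. The factors closest to Sertoli identity did not pass: Sox8, a partner of Sox9, read 306 in MEF, 314 and 294 in the iLC pair, and 317 on both Leydig arrays. Dmrt1 read 397 in MEF, 333 and 427 in the iLC pair, and 549 and 519 in the Leydig pair. Wt1 read 2285, then 1854 and 722, then 3017 and 3128 in the same order (Leydig against MEF 0.42 ± 0.59). Gata1 read 3441 and 975 on the Leydig arrays beside 637 in MEF, and Rhox5, an androgen-responsive homeobox gene of Sertoli cells, read 255 and 245 beside 549. Dmrt1, Gata4 and Nr5a1 were the factors given to the iLC cells by lentivirus, yet none of their probes read above MEF on both iLC arrays. Whether these probes detect the delivered transcripts was not tested.

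Of 18 secreted products, 3 were higher and 2 were lower in Leydig cells than in MEF. Serpina5, a serine protease inhibitor, read 227 in MEF, 122 and 325 in the iLC pair, and 65703 and 72054 in the Leydig pair (8.15 ± 0.58, limma adjusted p = 0.00267). Inha, the inhibin alpha subunit, read 2488, then 12896 and 11106, then 35878 and 27678 (3.65 ± 0.39, limma adjusted p = 0.00614). Nell2 differed by 4.09 ± 0.60 (limma adjusted p = 0.0143), but its other probe read 739 in MEF but 319 and 542 on the Leydig arrays. Inhbb, an activin and inhibin beta subunit, was lower by -3.99 ± 0.37 (limma adjusted p = 0.00435), and Plat, the tissue plasminogen activator, by -3.32 ± 0.47 (limma adjusted p = 0.0132). Against iLC, Gdnf and Kitl, ligands for germ cells, were lower as well, by -2.20 ± 0.36 and -1.52 ± 0.30. These 2 calls were lost without Leydig replicate 1, Leydig replicate 2 or iLC replicate 2, and that of Kitl without iLC replicate 1, over ranges of -2.54 to -1.85 and -1.63 to -1.41. Amh, the hormone that removes the Müllerian duct, read 229 in MEF, 6.75 and 137 in the iLC pair, and 89.2 and 216 in the Leydig pair. Ptgds, a prostaglandin synthase, read 2214 on Leydig replicate 1 and 235608 on Leydig replicate 2, with 408 in MEF and 12887 and 58864 on the iLC arrays. Its difference of 5.76 ± 2.48 did not pass. Ctsl, the other bright gene of the list on the Leydig arrays, did not pass either.

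Of 17 receptors, enzymes and engulfment genes, Gsta4, a glutathione transferase, was higher in Leydig cells than in MEF (3.21 ± 0.53, limma adjusted p = 0.0205), and Slc16a3, a lactate carrier, was lower (-3.57 ± 0.51, limma adjusted p = 0.0133). Against iLC, Mertk, an engulfment receptor, was higher (2.71 ± 0.35, limma adjusted p = 0.00658), as was Mro (1.73 ± 0.40), and Tyro3 was lower (-2.10 ± 0.43). Mro read at most 102 on any array, and its call was lost in 9 of 14 alternatives, with values from 0.11 to 2.50. The call of Tyro3 was lost with any 1 of the 4 paired arrays left out, at -2.56 to -1.64, and with the 1st percentile subtracted. Without iLC replicate 1 or either Leydig array that of Mro was lost as well, at 1.25 to 2.21 with 1 array left out. Fshr, the follicle-stimulating hormone receptor and the receptor that defines Sertoli cells in the testis, read 1656 in MEF, 2572 and 2384 in the iLC pair, and 1852 and 1893 in the Leydig pair (Leydig against MEF 0.18 ± 0.37). Axl and Mfge8, with Gsta4 the brightest of the list on the Leydig arrays, did not pass.

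Of 15 junction genes, none was higher in Leydig cells than in MEF and Cdh2, N-cadherin, was lower (-3.08 ± 0.47, limma adjusted p = 0.0161). Cldn11, outside this list, had 2.72 in the same comparison. F11r, a junctional adhesion molecule, was higher against iLC (1.62 ± 0.31, limma adjusted p = 0.0228), while Jam2 (-3.00 ± 0.38) and Cdh2 (-2.84 ± 0.38) were lower. With 1 array left out the call of F11r was lost each time (1.51 to 1.73). Those of Jam2 (-3.32 to -2.68) and Cdh2 (-3.27 to -2.42) were lost without Leydig replicate 2, and that of Cdh2 also without Leydig replicate 1. Gja1, Pard3 and Jam3 had the highest means of the list on the Leydig arrays, and none of them passed in either Leydig comparison.

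**Figure D4:**
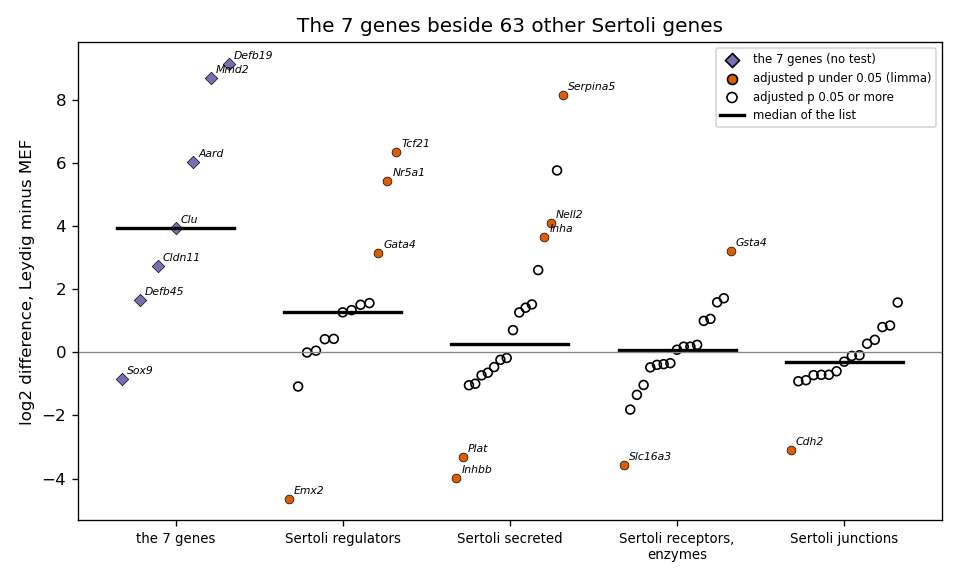
Log2 difference between Leydig and MEF for the 7 genes and for 63 other Sertoli genes in 4 lists; each point is 1 gene and each horizontal line a list's median. The 7 genes, chosen with these readings known, have a median of 3.92, and 12 of the 63 others passed the test, 7 of them higher.

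Close relatives were read in the same way. Of 24 other claudins, limma called none between Leydig and MEF, with differences from -1.72 to 0.85. Cldn4 was the lone call against iLC, lower by -2.26 ± 0.44, and is named because its value was seen. Cldn12, Cldn19 and Cldn15 had the highest means of these on the Leydig arrays and did not pass. Of 18 other Sox genes, Sox2 was lower in Leydig cells than in MEF (-2.88 ± 0.52), and against iLC Sox5 was higher (1.89 ± 0.42) and Sox4 lower (-2.57 ± 0.53). Sox2, named after its value was seen, read 426 on the MEF array and at most 67.1 on the others. Leaving out Leydig replicate 2 ended the calls of Cldn4, Sox2, Sox5 and Sox4, and Leydig replicate 1 those of Cldn4, Sox2 and Sox4. Leaving out iLC replicate 1 ended those of Sox5 and Sox4, and iLC replicate 2 those of Sox5 and Cldn4. The values spanned -2.83 to -1.70 for Cldn4, 1.39 to 2.39 for Sox5, -3.20 to -1.95 for Sox4 and -2.89 to -2.88 for Sox2, which was -0.93 with the floor.

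Mmd2 has 8 relatives with a probe. Paqr7, a membrane progestin receptor, read 6655 in MEF, 8836 and 6496 in the iLC pair, and 67237 and 42133 in the Leydig pair (Leydig against MEF 3.00 ± 0.46, limma adjusted p = 0.0162). Mmd, the closest relative by name and singled out after its values were seen, went the other way. It read 22019 in MEF, 32782 and 57666 in the iLC pair, and 3107 and 2322 in the Leydig pair. Its difference was -3.03 ± 0.48 against MEF (limma adjusted p = 0.0183) and -4.01 ± 0.39 against iLC (limma adjusted p = 0.00255). The calls of Paqr7 and Mmd against MEF were lost without either Leydig array, at 2.66 and 3.33 for Paqr7 and -3.24 and -2.82 for Mmd. The other 6 relatives, Paqr9 and Paqr4 among them, did not pass in any comparison. Paqr9 still had the largest Leydig against MEF difference of the 8, at 4.57 (limma adjusted p = 0.0661), and passed in 5 of 13 alternatives. It read 186 in MEF, 576 and 1493 in the iLC pair, and 1859 and 12236 in the Leydig pair. Its other probe read 475 in MEF and 890 and 3488 on the Leydig arrays.

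The 2 Leydig arrays differed in markers of other testis cells. The 18 germ cell markers summed to 49260 on Leydig replicate 1 and 879514 on Leydig replicate 2, beside 19928 in MEF and 21171 and 25045 on the iLC arrays. Odf1, a sperm tail protein gene, read 2692 and 356634 on the Leydig arrays, Prm1, a protamine gene, 6235 and 141591, and Pgk2, a sperm glycolysis gene, 2601 and 109689. Of the earlier-stage markers, Ddx4 read 3672 and 3609, Dazl 3150 and 2389, and Sycp3 356 and 953. In all, 14 of the 18 were higher on Leydig replicate 2, with a median log2 gap of 0.75. Both Leydig arrays read above the other 3 arrays for 14 of the 18, beside 19.0% of all genes. In limma's fit Ldhc, Zbtb16 and Dazl were higher than in MEF and none was lower, where 3.34% and 3.97% of all genes were. Each of these calls was lost without Leydig replicate 2. Against iLC 9 were higher and 1 lower, where 5.65% and 5.72% of all genes were. The 7 genes had a median gap of 0.76, with 5 of them higher on Leydig replicate 2. Aard, Sox9, Defb45, Defb19 and Clu were higher there by 1.55, 1.28, 0.97, 0.76 and 0.15, and Mmd2 and Cldn11 had -0.42 and -0.94. The 63 other Sertoli genes had a median gap of -0.11, with 25 higher on Leydig replicate 2, and all genes one of -0.06. Leydig replicate 1 had the lower germ cell sum, though still above that of MEF. On this array alone against MEF, Mmd2 stood at 8.88, Defb19 at 8.74, Aard at 5.25, Clu at 3.85 and Cldn11 at 3.19. The part of germ cell RNA in the remaining differences between the arrays was not tested.

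Other cell types were read by their summed levels. Such a sum can rest on a few bright genes, and a sum below that of MEF gives no share of such cells in the Leydig preparation. Calls in these lists are for Leydig against MEF, where 3.34% of all genes were called higher and 3.97% lower. The 9 measured Leydig genes summed to 617523 and 680956 on the Leydig arrays, 460728 and 597419 on the iLC arrays and 101372 on the MEF array. Hsd3b1, Cyp17a1 and Fdx1 of this list were higher in Leydig cells than in MEF, Star and Cyp11a1 did not pass, and Insl3 and Lhcgr had no probe. The Leydig arrays differed most in Star, which read 1368 on Leydig replicate 1 and 19703 on Leydig replicate 2. It read 695 in MEF and 56878 and 73892 in the iLC pair. Its other probe read 906 and 4451 on the Leydig arrays. Peritubular myoid genes summed to 119505 and 127090 on the Leydig arrays against 715344 in MEF, with 5 of 8 called lower there. Acta2 and Myh11 were among these 5, and Cnn1, Mylk and Smtn were not. Acta2 alone read 466436 on the MEF array. Macrophage genes summed to 25079 and 24452 against 181828, with 6 of 11 lower, Adgre1 and Csf1r among them; Cd68, Cd14 and Ptprc did not pass. Endothelial genes summed to 25908 and 20810 against 14946, with Cdh5 higher, Emcn lower and 7 of 9 not passing, Pecam1, Kdr, Esam and Eng among them. Of 7 granulosa genes, Amhr2, the AMH receptor, was higher, Fst and Inhba were lower, and Foxl2, Fshr and Wnt4 did not pass; the sums were 29944 and 25406 against 33551. Of 10 epithelial genes of the rete testis and epididymis, Krt19 was lower, and Pax8, Krt18, Lcn8 and Cdh1 did not pass. Krt8 was called lower too, but its probe read at most 67.5 on any array and the call was lost in 9 of 12 alternatives, each array left out among them. That list summed to 25679 and 22906 against 32267. Of the genes named so far in this paragraph as higher or lower, Hsd3b1 and Krt19 kept their call without Leydig replicate 2, and the others did not. Tagln and Lyz1, named after their values were seen, had the largest differences of the myoid and macrophage lists, at -8.42 and -5.67 against MEF. Both kept their call under every alternative. With 1 array left out the values spanned -8.72 to -8.13 for Tagln and -6.39 to -4.94 for Lyz1. No marker of any list read 0 or less on both Leydig arrays.

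**Figure D5:**
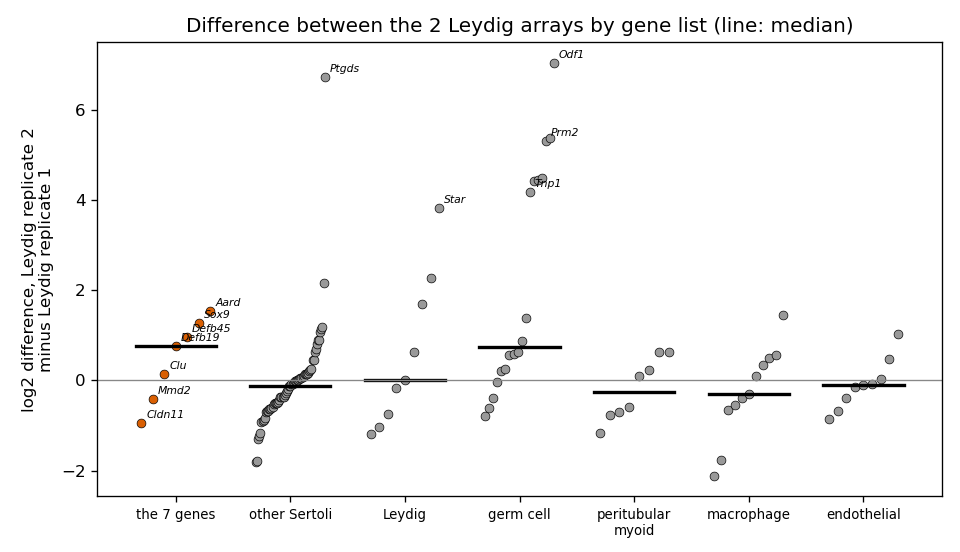
Log2 difference between Leydig replicate 2 and Leydig replicate 1 for the 7 genes and 6 marker lists; each point is 1 gene and each horizontal line a median. Germ cell genes reach 7.04 (Odf1), while the 7 genes lie between -0.94 (Cldn11) and 1.55 (Aard).

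For each of the 7 genes the 3 genes with the closest profile were found among all genes. Closeness was the root mean square difference of log2 values over the 5 arrays, after each gene's mean was removed. Mrap, an accessory protein of the ACTH receptor, was nearest to Defb19 at 0.331. It read 383 in MEF, 12133 and 10236 in the iLC pair, and 94209 and 160866 in the Leydig pair. Gsta3 (0.642) and Lcn2 (0.887) came next. Defb45 was closest to Ccl17 (0.539), Cyp11b1 (0.568) and Adh7 (0.577), all high on the iLC arrays. Cyp11b1, an adrenal steroid hydroxylase gene, read 275 in MEF, 13429 and 12027 in the iLC pair, and 322 and 1730 in the Leydig pair.

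Mmd2 was closest to Acsbg1 (0.530), an acyl-CoA synthetase gene that read 1521 in MEF, 3150 and 2515 in the iLC pair, and 266389 and 257123 in the Leydig pair. Agt, angiotensinogen, followed at 0.756 and Hbb-b1, a beta-globin, at 0.830. Aard was nearest to Svs5 (0.330), Slc30a2 (0.344) and Ly6k (0.352), Clu to Doc2b (0.280), Rai2 (0.299) and Hoxd9 (0.330), and Cldn11 to Sfi1 (0.080), Prxl2a (0.097) and Trib2 (0.121). Sox9 was nearest to Stk10 (0.115), Ubtd1 (0.125) and Sowahb (0.141). No member was among the nearest 3 of another. The closest pair within the set was Clu and Cldn11 at 0.673, and the neighbours Defb19 and Defb45 were 3.89 apart.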

How the data were processed

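The deposited table holds linear probe intensities processed by the authors; the software, background correction and normalization are not stated in the labels. RNA was amplified and labelled with Cy5, per the labels. Array medians were 1111 to 1230, and 0, 435, 23, 0 and 46 values lay below 0. Detection calls were not used here, so the number of arrays limits the precision. The 0 columns of no sample were left out.

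Samples were grouped by title. Probes were named through the platform annotation: 21876 had 1 gene symbol, 0 several and 4547 none. All 7 members had the same symbol in the RefSeq table (GRCm38.p6). Values below 0 were set to 0, 16 was added and log2 taken, which shrinks differences of dim genes. The probe with the highest mean log2 value stood for each of 19084 genes. limma 3.58.1 in R 4.3.3 (lmFit, eBayes) fitted 1 mean per group over 5 arrays, with 2 residual and 4.21 prior degrees of freedom. Tests were two-sided and adjusted by Benjamini-Hochberg over all genes, with a threshold of 0.05. MEF, with 1 array, was assumed to have the spread of the pairs. The 3 comparisons share arrays. The script was tested on simulated data.

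The members and gene lists were chosen with earlier results of these data known. Named genes were the 7, the Sertoli genes called against MEF or iLC (at most 6 for each list and direction), the 3 brightest and first 3 genes of other lists, the 3 brightest relatives and the 3 nearest profiles; other genes were named where a count was 5 or fewer, after their values were seen. Alternatives were the added value, filter, floor, centring, quantile normalization, offset subtraction, mean of probes, intensity trend, leaving out arrays, replicate block and 2 groups alone.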

Additional observations from a re-analysis of the deposited data

How the results depend on the processing

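The medians over the 7 genes moved by less than the spread between arrays under every alternative run, and with 1 array left out they spanned 3.85 to 3.998 for Leydig against MEF, 2.58 to 3.15 for Leydig against iLC and 1.41 to 1.60 for iLC against MEF. Of 287 values of single members under an alternative, 273 moved by less than that spread, 14 moved further, and 0 reversed a called direction. Some of the 273 still crossed the threshold, such as Defb19 and Defb45 for iLC against MEF with 4 added. Others changed sign, such as Cldn11 for iLC against MEF without iLC replicate 1. Counts of called genes depended more on the arrays. With 1 array left out, Leydig against MEF gave 153 to 964 genes instead of 1394 and 3 to 12 of the other Sertoli genes instead of 12. Leydig against iLC gave 696 to 1271 genes instead of 2170 and 9 to 12 other Sertoli genes instead of 17. The iLC and Leydig labels share replicate numbers, but their deviations by number correlated at 0.0557 across genes and no label says what a number shares; with the replicate block limma called 3440 genes. For iLC against MEF limma called 107 genes, 53 higher and 54 lower, and 0 when any 1 paired array was left out (2132 to 2886 at an unadjusted p under 0.05). It called 7 genes with 4 added, 290 with 64 added, 230 without genes of mean under 500, 326 with the 20th percentile as floor, 362 after quantile normalization, 6 with the 1st percentile subtracted and 253 with an intensity trend. Median centring gave 414, of which 156 were higher and 258 lower, or 37.7% higher instead of 49.5%. Of the other Sertoli genes limma called 0 here, 2 with 64 added, 2 with the floor, 2 after centring, 2 after quantile normalization, 1 without genes of mean under 500 and 1 with the trend. Beyond settings that use fewer arrays or genes, the cause of these shifts was not tested. Readings near an array's low end, such as Defb19 and Defb45 on the MEF array, set no reliable size.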
